A study of Homo sapiens with 6 samples.

Results

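The transcription factor NRF2, its inhibitor KEAP1, the BACH repressors and the MAF proteins that join them on DNA were followed at the RNA level in THP-1, a human cell line that was derived from a monocytic form of acute myeloid leukaemia. The 10 genes (NFE2L2, NFE2L1, KEAP1, CUL3, BACH1, BACH2, MAFF, MAFG, MAFK and MAF) were taken by symbol from the deposited table of 25336 genes. All 10 had a row, and 8 of them passed the filter on low counts that left 15305 genes for testing. The sample descriptions give pristimerin for 3 libraries and control for 3 libraries, while the library titles name no treatment. Pristimerin is a plant triterpenoid that carries a quinone methide. The labels give no dose, no exposure time and no genetic change, and the series title also concerns erastin-induced ferroptosis, but no library is labelled with erastin. Every library held poly(A)-selected RNA. Higher and lower refer to pristimerin relative to control.

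NRF2, encoded by NFE2L2, drives the antioxidant and detoxification response. In unstressed cells KEAP1 binds NRF2 and hands it to a CUL3 ubiquitin ligase for destruction. Electrophiles modify cysteines of KEAP1, so that newly made NRF2 escapes, enters the nucleus and pairs with a small MAF protein (MAFF, MAFG or MAFK) on antioxidant response elements. BACH1 pairs with the same small MAF proteins on the same elements and represses them until haem removes it. Much of this control acts on protein, which RNA counts do not measure.

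Total counts ran between 24323627 and 30568593 in the pristimerin libraries and between 19057219 and 27880414 in the control libraries. Values below are CPM, the count of a gene relative to the TMM-scaled total of its library, unless FPKM (which also divides by gene length) is named. Of 10 monocytic markers, LYZ averaged 1588 CPM in pristimerin and 1429 CPM in control libraries, and the means of CD14 and CD68 were under 1 CPM in both groups. Of the 10, 0 were called higher, 2 lower and 8 not called, where 15.1% of all genes tested were called lower. The 2 were ITGAM (5.49 CPM in pristimerin, 9.02 CPM in control, log2 fold change -0.71) and FCGR1A (35.5 CPM in pristimerin, 44.4 CPM in control, -0.33). LYZ (0.08 to 0.21 over the alternatives) and CD14 (0.24 to 1.51) were called higher under some alternatives. The summed level of the 10, most of it LYZ, lay at 2194 to 2229 CPM in pristimerin and 1972 to 2133 CPM in control libraries. The summed level of 4 B-cell genes lay at 7.36 to 7.63 CPM in pristimerin and 6.09 to 6.50 CPM in control libraries, and PAX5 was the one called (log2 fold change 0.61). That call was lost under 10 of 15 alternatives, among them without control replicate 2, without control replicate 3, without pristimerin replicate 1 and without pristimerin replicate 3 (0.09 to 0.72 over the alternatives). Summed erythroid markers reached at most 0.127 CPM in pristimerin and 0.037 CPM in control libraries. The part of these cell type genes in the results below was not tested, and in bulk RNA fewer cells of a type cannot be told apart from less RNA per cell. The replicate 2 libraries of both groups stood apart from the others on the second principal component, which held 12.8% of the variance. In both groups, replicate 2 had the highest or the lowest CPM of its group for all 8 tested regulators, which held for 42.9% of all genes tested.

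Most of the regulators differed little between the groups. Of the 8 tested, CUL3 was called higher, MAFG was called lower and 6 were not called. A call means a Benjamini-Hochberg adjusted p under 0.05, over all genes tested, from the quasi-likelihood test of edgeR. Over all genes tested, 29.6% were called, 14.5% higher and 15.1% lower, so the share of regulators called was near the background. The direction of the calls over all genes depended on the scaling, with 48.9% of them higher under TMM, 33.3% under upper-quartile scaling and 30.2% with library totals. The groups did not overlap for CUL3, MAFF and MAFG, where 43.3% of all genes tested had no overlap (21% with the pristimerin libraries above and 22.3% with them below). The median log2 fold change of the 8 was -0.01, as it was for all genes tested. Without both replicate 2 libraries, CUL3 (0.16) and MAFG (-0.38) were still called.

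**Figure D1:**
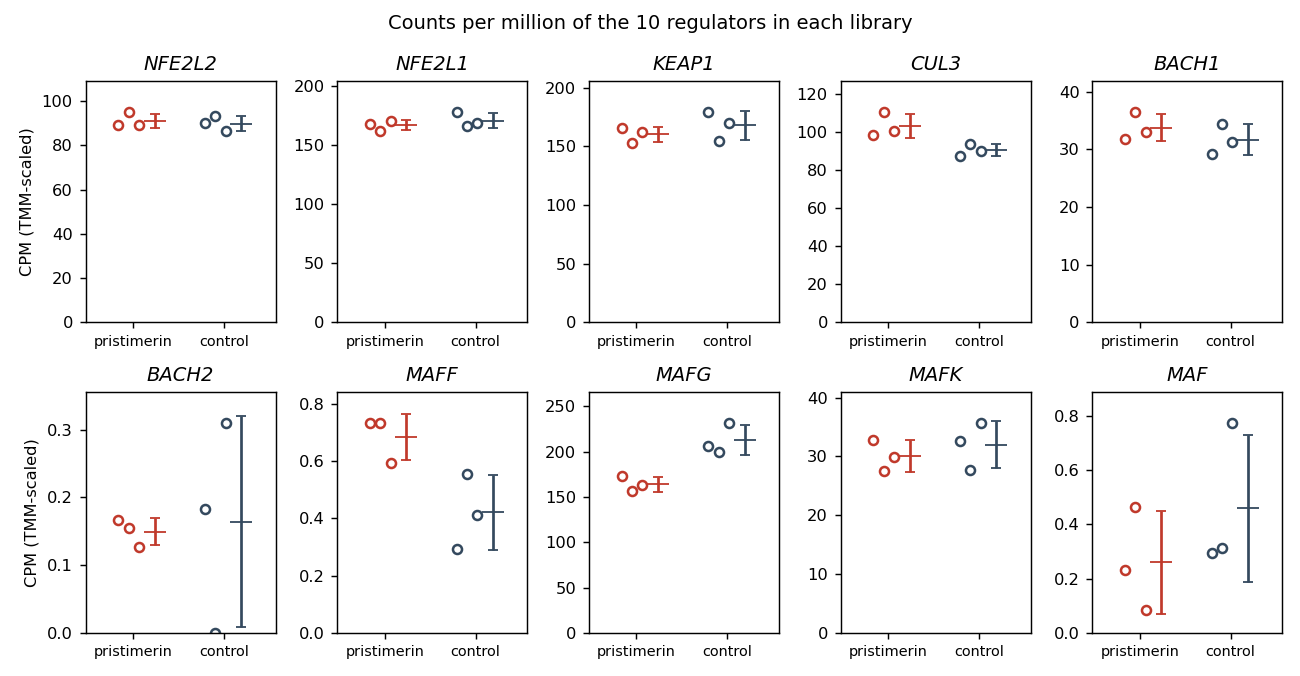
CPM (TMM-scaled, linear axis from 0) of each of the 10 regulators in the 3 pristimerin (left, red) and 3 control (right, dark) libraries. Circles are libraries, and the bar beside them is the mean with its SD. MAFG and CUL3 are the called genes, and BACH2, MAFF and MAF stay under 1 CPM in every library.

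NRF2, BACH1 and the small MAF proteins meet at DNA, whereas KEAP1 and CUL3 act on NRF2 protein. The letters near the regulators' own start sites were searched on both strands for TGACNNNGC, the core of the antioxidant response element. They were also searched for TGANTCA, the AP-1 core that some MAF recognition elements also hold. RefSeq start regions (250 bases before to 50 after each start, GRCh38.p14) matched 9 of the 10 genes, with 16 regions. TGACNNNGC stood in 2 of the 16 regions and in 13.3% of all 35116 regions, and TGANTCA in 1 of the 16 and in 7.71% of all. The matches belong to KEAP1, MAFF and BACH1. They are printed with 6 or 7 bases on each side and the match in capitals, beside the 90 bases before the start of MAFG, the gene with the firmest change, in which neither core occurs. Positions count back from the transcript start of the region, and each line reads along the gene's strand.
MAFG: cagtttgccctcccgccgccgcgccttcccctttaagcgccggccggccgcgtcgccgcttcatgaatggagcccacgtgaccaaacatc
KEAP1 first match: ttattgTGACACGGCgggcgc
KEAP1 second match: ggctctGCTTAGTCAtggtga
MAFF: caggggGCGGGGTCAtacggg
BACH1: gaaggagTGAGTCAcctgacc
The MAFG stretch is chr17:81927736-81927825, minus strand. The KEAP1 stretches are chr19:10502811-10502831 and chr19:10502788-10502808, minus strand, before the downstream one of its annotated starts, with the matches at -54 and -31. The MAFF stretch is chr22:38201866-38201886, plus strand (match at -122), and the BACH1 stretch chr21:29298867-29298887, plus strand (match at -48). The KEAP1 second match and the MAFF match read TGACNNNGC on the opposite strand. A match of letters is a description and not a site of binding, and letters outside these start regions were not searched.

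NFE2L2 (ENSG00000116044, protein-coding, hg38 chr2:177218667-177392756, minus strand) held 89.4, 94.8 and 89.1 CPM in pristimerin libraries, against 89.9, 93.1 and 86.5 CPM in control libraries. The groups overlapped throughout, and each replicate 2 was its group's highest. The log2 fold change was 0.02 (SE 0.06), with a 95% interval of -0.11 to 0.15, which corresponds to 0.925-fold to 1.11-fold. It did not pass edgeR's test (adjusted p = 0.84), and its sign turned under upper-quartile scaling, library totals, both FPKM settings and without pristimerin replicate 2. NFE2L2 shares its locus with the opposite-strand genes HNRNPA3, at 467 CPM, and AGPS, at 99.96 CPM. AGPS was called higher (0.33) and HNRNPA3 was not (0.14). In GENCODE release 29 the exons of AGPS share 54 bases with those of NFE2L2, and the exons of HNRNPA3 share 0. The NFE2L2 length implied by the deposited values, 14.98 kb, exceeds the 5.98 kb of its exons in that release. Bases counted outside those exons could therefore not be checked for sharing. Whether the counting used the strand is not given in the sources used here, and the part of these genes in the NFE2L2 count was not tested.

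NFE2L1 encodes NRF1, a relative of NRF2 that is held at the endoplasmic reticulum and, after cleavage, raises proteasome genes. It held 168.2, 162.4 and 170.6 CPM in pristimerin libraries and 177.8, 166.0 and 169.1 CPM in control libraries, again with overlapping groups. Its log2 fold change was -0.03 (SE 0.06; 95% interval -0.16 to 0.09; edgeR adjusted p = 0.71). The locus is hg38 chr17:48048329-48061545, plus strand.

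KEAP1, the cysteine-rich sensor and inhibitor (hg38 chr19:10486125-10503558, minus strand), held 165.6, 153.2 and 162.2 CPM in pristimerin libraries and 178.9, 154.8 and 169.6 CPM in control libraries. The lowest library of each group was replicate 2, and the groups overlapped. The log2 fold change was -0.06 (SE 0.07; 95% interval -0.20 to 0.07; edgeR adjusted p = 0.49). CUL3 is the scaffold of the ligase that KEAP1 serves (hg38 chr2:224470150-224585397, minus strand). It held 98.4, 110.3 and 100.4 CPM in pristimerin libraries, against 87.6, 93.9 and 90.3 CPM in control libraries. Each pristimerin library lay above each control library, though the nearest libraries, pristimerin replicate 1 and control replicate 2, lay close. CUL3 was higher by a log2 fold change of 0.19 (SE 0.07; 95% interval 0.05 to 0.32; edgeR adjusted p = 0.042). This call is weak: it was lost under 8 of 15 alternatives, among them upper-quartile scaling (0.12), library totals (0.11) and both FPKM scales (0.10 and 0.11). It was also lost when control replicate 1 (0.16), control replicate 3 (0.20), pristimerin replicate 2 (0.14) or pristimerin replicate 3 (0.22) was left out.

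BACH1, the haem-sensitive repressor (hg38 chr21:29194071-29630751, plus strand), held 31.9, 36.4 and 33.0 CPM in pristimerin libraries and 29.3, 34.5 and 31.3 CPM in control libraries. Replicate 2 was the highest of each group, and the groups overlapped. The log2 fold change was 0.09 (SE 0.09; 95% interval -0.09 to 0.27; edgeR adjusted p = 0.47). BACH2, its relative best known from B lymphocytes (hg38 chr6:89926528-90296843, minus strand), was barely detected, with 5, 4 and 3 counts in pristimerin libraries and 5, 0 and 6 counts in control libraries. The control library without a count allows up to 0.104 CPM at 3 counts, for counting error only. BACH2 was left out by the low-count filter, so it has no test, and no fold is given.

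Among the small MAF genes, MAFG was lower and the other two were not called. MAFG (ENSG00000197063, hg38 chr17:81918270-81927735, minus strand) held 172.7, 156.2 and 163.1 CPM in pristimerin libraries, against 206.6, 199.7 and 231.3 CPM in control libraries. All 3 pristimerin libraries lay below all 3 control libraries, and pristimerin replicate 1 and control replicate 2 were the nearest. The means were 164.0 ± 8.3 CPM in pristimerin and 212.5 ± 16.6 CPM in control libraries (SD, n = 3 each). The log2 fold change was -0.37 (SE 0.07; 95% interval -0.51 to -0.23; edgeR adjusted p = 0.00052), which is a decrease of 22.8%. It stayed lower and past the threshold under all 15 alternatives, with values between -0.44 and -0.29, the smallest without control replicate 3. SIRT7, which overlaps MAFG on the same strand and shares 105 exonic bases with it in GENCODE release 29, held 100.8 CPM in pristimerin and 100.2 CPM in control libraries (log2 fold change 0.01, SE 0.08; edgeR adjusted p = 0.95).

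MAFK (hg38 chr7:1530702-1543043, plus strand) held 32.9, 27.5 and 29.9 CPM in pristimerin libraries and 32.6, 27.7 and 35.7 CPM in control libraries. The groups overlapped, and the log2 fold change of -0.08 (SE 0.10; 95% interval -0.29 to 0.13; edgeR adjusted p = 0.56) turned its sign without control replicate 3. MAFF, the stress-inducible small MAF gene (hg38 chr22:38200767-38216507, plus strand), was near the detection limit, with 22, 19 and 14 counts in pristimerin libraries and 8, 16 and 8 counts in control libraries. These correspond to 0.732, 0.733 and 0.593 CPM in pristimerin libraries and 0.293, 0.557 and 0.413 CPM in control libraries, which did not overlap. The log2 fold change of 0.70 (SE 0.36; 95% interval -0.07 to 1.46) did not pass edgeR's test (adjusted p = 0.16). MAFF lies opposite PLA2G6, which averaged 11.1 CPM over the 6 libraries and was called lower (-0.46). Their exons share 0 bases in GENCODE release 29. MAF, the large MAF factor with its own activation domain (hg38 chr16:79585843-79600737, minus strand), had 7, 12 and 2 counts in pristimerin libraries and 8, 9 and 15 counts in control libraries. It was also left out by the filter, and its groups overlapped.

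**Figure D2:**
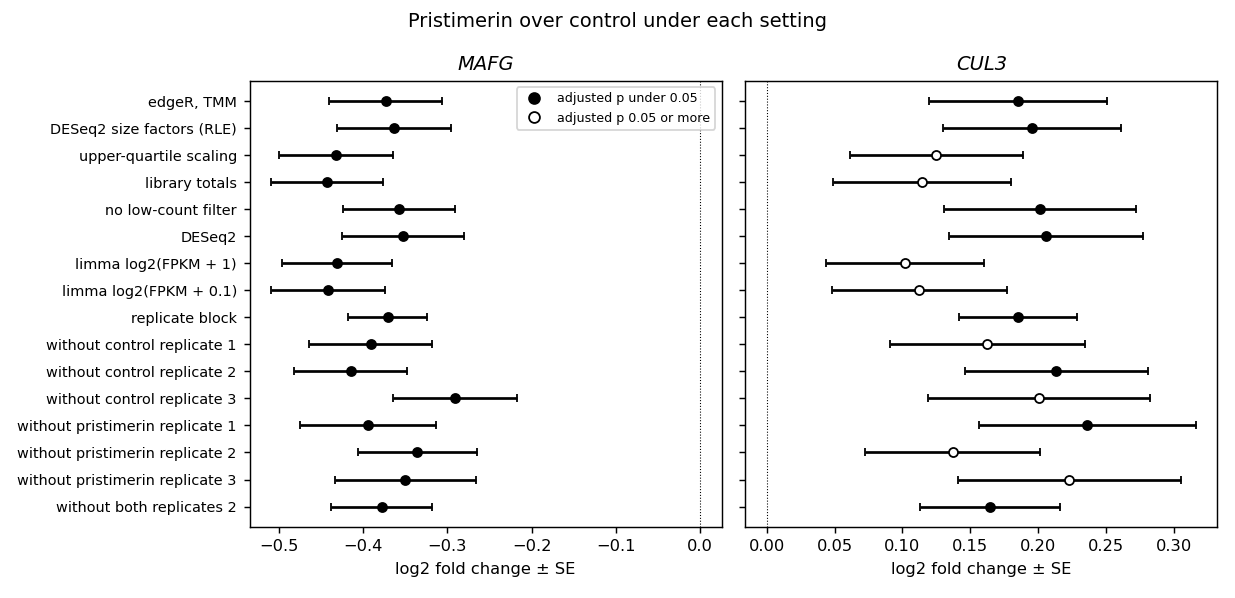
Log2 fold change, pristimerin over control, with its SE, of MAFG (left) and CUL3 (right) under the edgeR fit with TMM and each of 15 alternatives. Filled circles passed an adjusted p of 0.05. MAFG lies between -0.44 and -0.29 and is filled throughout, while CUL3 is open under 8 alternatives.

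Levels can be set between genes only per length. In deposited FPKM, KEAP1 was the highest regulator, at 43.8 ± 1.9 in pristimerin and 48.1 ± 3.4 in control libraries (SD, n = 3 each). MAFG followed, at 30.5 ± 1.7 FPKM in pristimerin and 41.5 ± 3.0 in control libraries, then NFE2L1, at 27.7 ± 0.7 in pristimerin and 29.8 ± 1.1 in control libraries. KEAP1 and MAFG did not overlap in pristimerin libraries but did in control libraries, and MAFG and NFE2L1 overlapped in neither group. CUL3 (8.74 ± 0.52 FPKM in pristimerin, 8.07 ± 0.31 in control), MAFK (6.57 ± 0.62 in pristimerin, 7.33 ± 0.87 in control) and NFE2L2 (5.94 ± 0.21 in pristimerin, 6.15 ± 0.27 in control) lay close together. Of these, CUL3 and MAFK overlapped in control libraries, and MAFK and NFE2L2 in both groups. BACH1 came next, at 4.30 ± 0.29 FPKM in pristimerin and 4.24 ± 0.37 in control libraries. MAFF, MAF and BACH2 were all under 0.13 FPKM in every library.

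The rank of NFE2L2 depends on the length used. Its count and FPKM imply a gene length of 14.98 kb, whereas its principal transcript in GENCODE release 29 has 2.85 kb and all its annotated exons there cover 5.98 kb. This ratio of implied to principal length, 5.25, was the largest of the 10, and the others lay between 1.04 for MAFG and 2.65 for MAF. Per kb of principal transcript, a scale chosen after seeing the files, NFE2L2 reached 31.9 ± 1.1 CPM per kb in pristimerin and 31.5 ± 1.2 in control libraries (SD, n = 3 each). That gives it rank 4 in both groups in place of rank 6, after NFE2L1, at 35.0 ± 0.9 CPM per kb in pristimerin and 35.8 ± 1.3 in control libraries. MAFG had rank 3 in pristimerin libraries, at 32.5 ± 1.6 CPM per kb, where its values overlapped those of NFE2L1 and NFE2L2, and rank 2 in control libraries, at 42.2 ± 3.3. KEAP1 stayed first, at 54.3 ± 2.2 CPM per kb in pristimerin and 56.8 ± 4.1 in control libraries. Fold changes between the groups do not depend on the length.

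**Figure D3:**
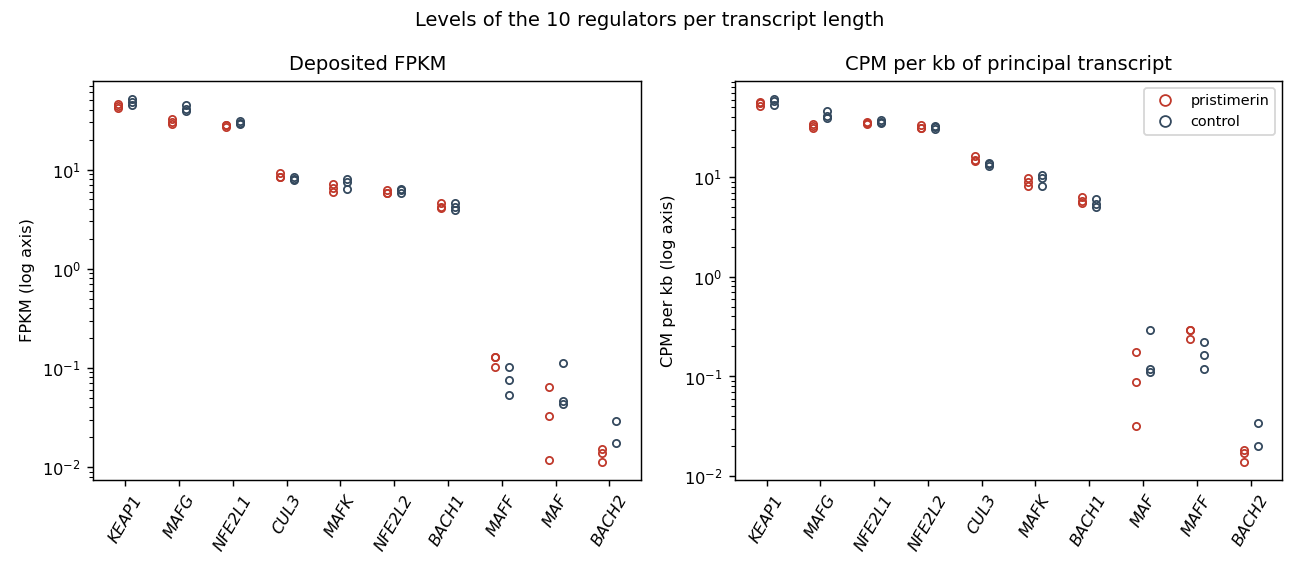
Level of each regulator in the 3 pristimerin (red, left of each pair) and 3 control (dark) libraries as deposited FPKM (left) and as CPM per kb of the principal GENCODE 29 transcript (right). Axes are logarithmic, genes are ordered by their control mean, and the BACH2 control library without a count is not drawn. NFE2L2 has rank 6 on the left and rank 4 on the right.

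The balance between opposing members was compared as ratios of FPKM within each library, in which library scaling cancels. The level of a ratio rests on the gene lengths behind FPKM, including the long one implied for NFE2L2, while the group differences in the log2 ratios do not. NFE2L2 relative to KEAP1 had a log2 ratio of -2.96, -2.76 and -2.93 in pristimerin libraries and -3.06, -2.80 and -3.04 in control libraries. The difference of 0.08 was within the spread of the libraries (exact two-sided permutation p = 0.50). NFE2L2 relative to BACH1 had log2 ratios of 0.52, 0.41 and 0.47 in pristimerin libraries and 0.65, 0.47 and 0.50 in control libraries, a difference of -0.07 (exact permutation p = 0.50). Within the small MAF genes, MAFG made up 81.5%, 82.6% and 82.1% of the summed FPKM of MAFF, MAFG and MAFK in pristimerin libraries, against 84.3%, 85.8% and 84.6% in control libraries. Its mean share differed by -2.83 percentage points, with no overlap between the groups, and the log2 ratio of MAFF to MAFG was 1.12 higher, also with no overlap. Both differences had an exact permutation p of 0.1, the smallest that 3 against 3 libraries allow, and 0.2 after Benjamini-Hochberg adjustment over the 4 comparisons. With 3 libraries a group, this test cannot reach 0.05 for any ratio. MAFF held at most 22 counts in a library and was not called. MAFF lay higher and MAFG lower, each with no overlap, so the lack of overlap in their ratio follows from those values. The MAFG share is likewise computed from the MAFG values and is not a result separate from the MAFG decrease.

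Relatives of these regulators and genes that act on them, together called partners here, were read from 6 short lists. Of 32 tested partners, 7 were higher, 4 lower and 21 not called, against the background of 29.6%. NFE2, the erythroid and megakaryocyte relative of NRF2, had the largest change, at 6.54 ± 1.20 CPM in pristimerin and 1.58 ± 0.35 CPM in control libraries (SD, n = 3 each; log2 fold change 2.03, SE 0.19; edgeR adjusted p = 4.4e-07). Its value ranged from 1.13 to 2.38 over the alternatives. NFE2L3, which encodes NRF3, was higher too (0.38, SE 0.11), a call lost on both FPKM scales, without pristimerin replicate 3 and without both replicate 2 libraries (0.20 to 0.46 over the alternatives). NRL (-0.49, SE 0.25), a large MAF factor under 2 CPM in both groups, was not called, and MAFA was not tested.

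Of 7 genes listed for the ubiquitin ligases of NRF2, including a kinase, 0 fell and 2 rose (14.5% higher and 15.1% lower over all genes tested). They were CUL1, the scaffold of the SCF ligase that acts on NRF2 independently of KEAP1 (261.0 ± 11.3 CPM in pristimerin, 164.9 ± 4.5 CPM in control; log2 fold change 0.66, SE 0.06), and FBXW11, an F-box protein of that ligase (0.28, SE 0.07). Its other F-box protein BTRC (-0.06) and adaptor SKP1 (-0.03), the ring subunit RBX1 (0.12), the kinase GSK3B (0.19, edgeR adjusted p = 0.056) and the ligase SYVN1 (-0.04) were not called. GSK3B was called higher under 5 of 15 alternatives, among them DESeq2 and leaving out pristimerin replicate 3 (0.09 to 0.26 over the alternatives), and RBX1 under 1. Among 7 proteins that bind KEAP1 or compete with it for NRF2, SQSTM1 fell. It averaged 96.9 ± 2.7 CPM in pristimerin and 144.8 ± 14.2 CPM in control libraries (SD, n = 3 each, log2 fold change -0.58, SE 0.07, edgeR adjusted p = 1.4e-05). SQSTM1 encodes p62, which draws KEAP1 into autophagy and is also counted among NRF2 targets below. DPP3, PALB2, PGAM5, AMER1, IKBKB and CDKN1A lay between -0.15 and 0.16 and were not called. Of these, DPP3 was called lower under 4 of 15 alternatives, PGAM5 higher under 2 and PALB2 higher under 1.

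For NRF1, the protease gene DDI2, whose product cleaves it, rose to 55.4 ± 2.2 CPM in pristimerin libraries, against 37.6 ± 2.1 CPM in control libraries (0.56, SE 0.07; edgeR adjusted p = 2.1e-05). FBXW7, which targets NRF1 for degradation, rose as well (0.36, SE 0.09), a call lost on both FPKM scales (0.19 to 0.44 over the alternatives). VCP, the ATPase that extracts NRF1 from the membrane, was lower by a small amount (-0.17, SE 0.06), and this call was lost under 6 of 15 alternatives, among them leaving out any single library but control replicate 2 (-0.24 to -0.13 over the alternatives). NGLY1, SEL1L, OGT and HCFC1 lay between -0.05 and 0.07 and were not called. For BACH1, the F-box gene FBXO22, whose product degrades it, rose (66.0 ± 3.0 CPM in pristimerin, 52.1 ± 2.9 CPM in control; 0.34, SE 0.07; 0.23 to 0.39 over the alternatives), and FBXL17 did not pass (0.01). Among 6 coregulators, RXRA, a nuclear receptor that binds and restrains NRF2, fell to 167.5 ± 3.4 CPM in pristimerin libraries, against 260.3 ± 12.6 CPM in control libraries (-0.64, SE 0.06; edgeR adjusted p = 5.6e-07). MED16 was also called lower (-0.24, SE 0.09), but lost the call under 9 of 15 alternatives, among them leaving out any single library but control replicate 2 (-0.34 to -0.12 over the alternatives). CREBBP, EP300, CHD6 and RARA lay between -0.03 and 0.14 and were not called.

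**Figure D4:**
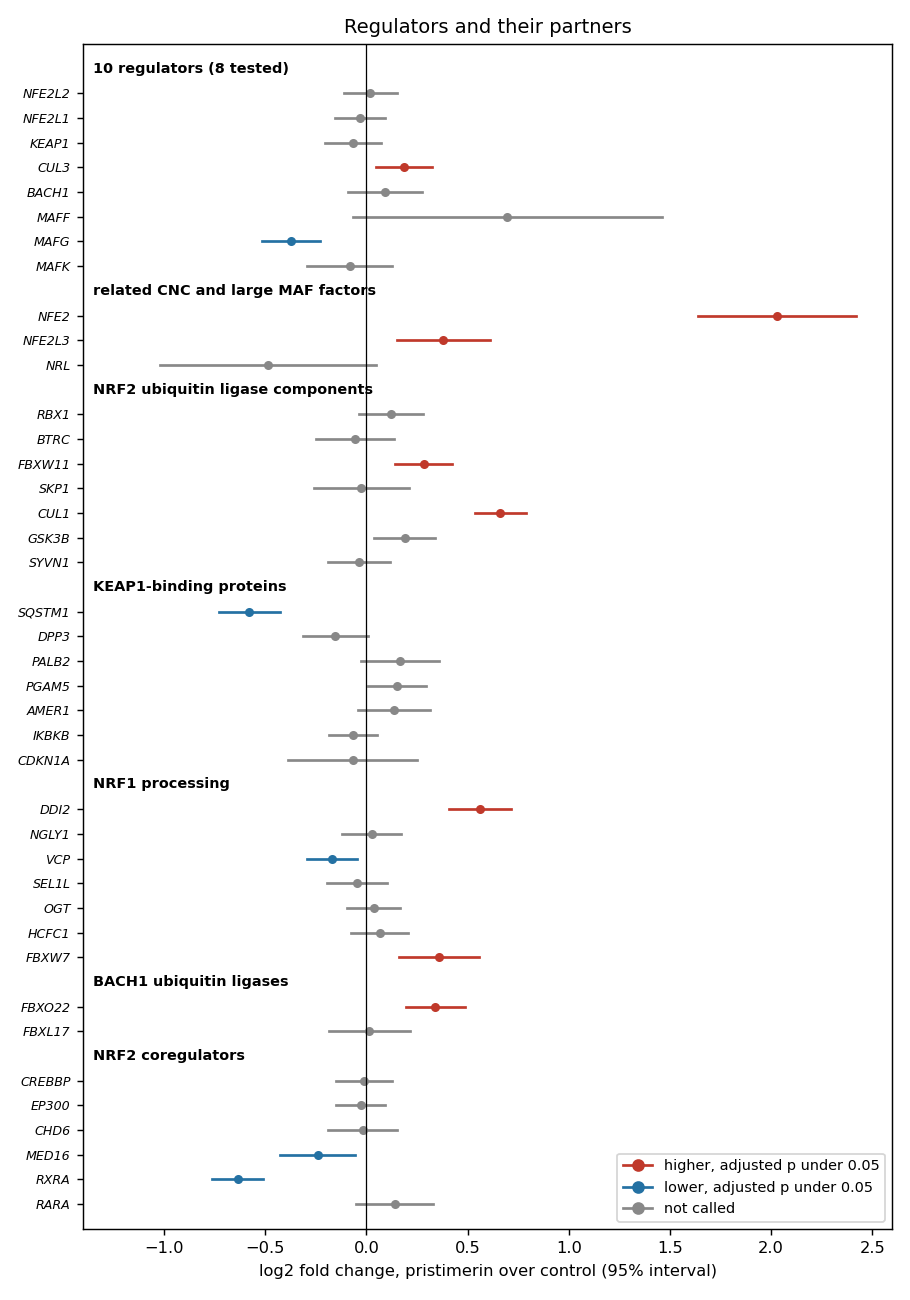
Log2 fold change, pristimerin over control, with its 95% interval for the 8 tested regulators and 32 tested partners, by list. Red marks genes called higher, blue genes called lower and grey genes not called by edgeR; NFE2 (2.03), CUL1 (0.66) and DDI2 (0.56) are the largest increases called and RXRA (-0.64) and SQSTM1 (-0.58) the largest decreases called.

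Most genes listed as NRF2 targets were lower, although the RNA of NRF2 itself was not called. Of 37 tested genes listed as NRF2 targets, 25 were lower, 1 higher and 11 not called, with a median log2 fold change of -0.58, against -0.01 over all genes tested. HMOX1, the haem-degrading enzyme, averaged 1.05 ± 0.32 CPM in pristimerin and 74.2 ± 20.0 CPM in control libraries (SD, n = 3 each; -6.14, SE 0.21). FTH1, the ferritin heavy chain, averaged 134.2 ± 2.2 CPM in pristimerin and 580.8 ± 74.2 CPM in control libraries (-2.11, SE 0.08). PIR, an iron-binding nuclear protein, averaged 7.84 ± 0.34 CPM in pristimerin and 41.4 ± 1.4 CPM in control libraries (-2.40, SE 0.09). TRIM16L was also lower (-1.97, SE 0.14; -2.06 to -1.15 over the alternatives); its reads can be shared with TRIM16, and those of FTH1 with processed pseudogenes. The list does not separate genes that NRF2 raises from genes that it lowers. The 1 gene called higher was TXNIP, the inhibitor of thioredoxin (0.56, SE 0.12). It kept this direction under all 15 alternatives (0.39 to 0.69), but did not pass the threshold on the FPKM scales. Across the alternatives, 22 to 27 of the targets were called lower. Of 8 haem and iron genes that BACH1 represses, 7 were lower and ABCB6, under 1 CPM, was not called (0.78); the median was -0.99. They included SLC48A1, a haem transporter (15.9 ± 1.4 CPM in pristimerin, 58.5 ± 6.7 CPM in control; -1.88, SE 0.10), and 5 of the 8 are in the NRF2 list as well. Of 32 proteasome subunits controlled by NRF1, 10 were lower, 0 higher and 22 not called, with a median of -0.13 and PSMB6 (-0.39) and ADRM1 (-0.34) as examples. The count of lower subunits was 5 without control replicate 3, 6 without pristimerin replicate 2, 17 with upper-quartile scaling and on both FPKM scales, and 20 with library totals. The count of higher subunits was 1 without control replicate 2 and also without both replicate 2 libraries. For comparison, 15.1% of all genes tested were called lower. The levels of active NRF2, BACH1 and NRF1 protein were not measured.

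**Figure D5:**
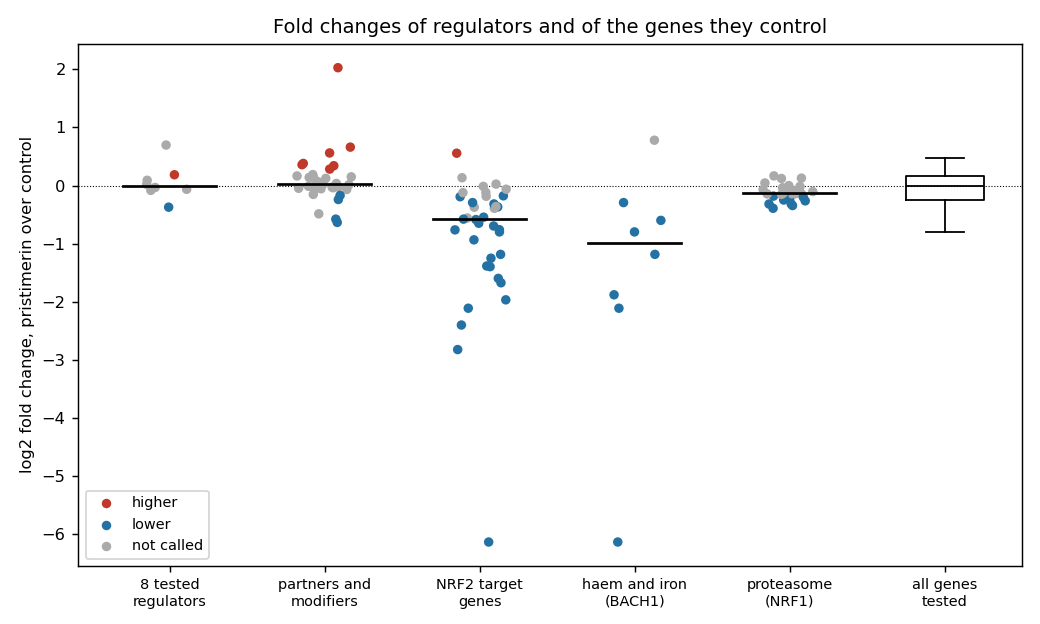
Log2 fold change, pristimerin over control, of the tested genes of each list (points; red higher, blue lower, grey not called) with the list's median as a line, and of all genes tested as a box (quartiles, whiskers at the 5th and 95th percentiles). The 8 regulators centre on -0.01 and the 37 NRF2 targets on -0.58, and HMOX1 is the point at -6.14 in both lists that hold it.

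Likeness of log2 CPM over the 6 libraries was ranked among genes of at least 5 CPM whose symbols are not clone, locus or LINC names. Of these, APBB3 (Pearson r = 0.995), PHGDH (0.993) and H2AJ (0.992) most resembled MAFG, and all 3 were called lower. Those most like CUL3 were LBR (0.999), TOMM70 (0.999) and SOCS4 (0.998), all called higher. These values are descriptions over libraries that fall into 2 groups, and they share that difference.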

How the data were processed

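The labels describe TRIzol extraction, poly(A) selection, dUTP strand marking and paired-end Illumina sequencing of 3 pristimerin and 3 control libraries, grouped by each sample's description. Titles of the pristimerin libraries hold the name of the cell line and a number, and those of the control libraries a letter and a number. The grouping, and so every direction reported, rests on the descriptions alone. The submitters' processing notes name hg38; the sources used here do not give the aligner, the counter, the annotation release or the strand setting. The authors deposited whole-number counts per gene and, separately, FPKM values; another deposited table repeats both with 0 differing cells. From the counts, genes were filtered with filterByExpr. It asks for the CPM that equals 10 counts at the median library size in at least 3 libraries, and for 15 counts in total. The genes left were scaled by TMM and fitted with edgeR 4.0.16 under R 4.3.3 (quasi-likelihood, group as the only term). Benjamini-Hochberg adjustment ran over 15305 genes. SE was obtained from the log2 fold change and its F statistic. The code was tested on simulated data.

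Nothing in the labels states that replicates were separate cultures; p-values therefore reflect variation among these libraries alone, possibly technical. Chi-square values between replicates of a group were 2.75 to 11.6 per degree of freedom, above sampling noise in each pair. Ratios were tested with scipy 1.17.1. Alternatives were 3 other scalings, no filter, DESeq2 1.42.0, limma 3.58.1 with a trend on the log2 of deposited FPKM plus 1 or plus 0.1 (mean FPKM of at least 0.1), a replicate block, each library left out in turn and, added after seeing the data, both replicate 2 libraries left out.

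The members, the gene lists and the tests were chosen with earlier results of these data known. Some listed genes are not reported here and are left out of the list counts. Every member was named, any gene of a list of up to 7 genes could be, and from longer lists up to 4 called genes by size of change, with 5 CPM as the least mean. TXNIP, ABCB6, LYZ, CD14, CD68, ITGAM, FCGR1A and the overlapping genes fall outside that rule and were named after their values were seen. Likeness to MAFG and CUL3 was ranked by Pearson correlation of log2 CPM among genes of at least 5 CPM. Genes without a symbol or with a clone, locus or LINC name were left out of that ranking.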

Additional observations from a re-analysis of the deposited data

How the results depend on the processing

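MAFG kept its direction and its call under all 15 alternatives, and NFE2L1, KEAP1, BACH1 and MAFF kept their direction and stayed uncalled under those that tested them. NFE2L2, uncalled throughout, turned to -0.040 under upper-quartile scaling, -0.051 with library totals, -0.043 on log2(FPKM + 1) and -0.049 on log2(FPKM + 0.1), and ran from -0.0066 to 0.055 when 1 library was left out. MAFK ran from -0.18 to 0.015 in the same way. The count of regulators called higher was 0 under upper-quartile scaling, library totals and both FPKM scales, and 0 to 1 when a library was left out; CUL3 is the gene concerned, with values of 0.10 to 0.24 over the alternatives. Over all genes, 2216 were called higher, against 1392 with library totals, 1081 on log2(FPKM + 1) and 1084 on log2(FPKM + 0.1), and 2313 lower, which ran from 1534, without control replicate 3, to 2329 when a library was left out and was 3219 with library totals, 3052 with upper-quartile scaling and 1676 with DESeq2. The block raised these counts to 3150 higher and 2948 lower, and gave 17 lower and 2 higher proteasome subunits in place of 10 and 0. The causes were not tested. With the replicate block the log2 fold change was -0.37 for MAFG and 0.19 for CUL3, and the counts of regulators called were 1 higher and 1 lower, as without it; same-numbered libraries' deviations correlated at 0.16, 0.22 and 0.04, too low in 1 pair to take the numbers as pairs, and each library's deviation correlated best with its own number in 3 of 3 pairs, which is a hint from the data and not the design. The 4 ratios kept their sign when a library was left out and with CPM in place of FPKM. Counts of at most 22 limit MAFF, MAF and BACH2.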
